A study of Mus musculus with 4 samples.

Results

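The genes described here are 10 members of the peptide systems that set vessel tone: the ligands Edn1 and Adm, the endothelin receptors Ednra and Ednrb, the angiotensin receptor Agtr1a, the natriuretic peptide receptors Npr1 and Npr3, and the adrenomedullin receptor with its partners, Calcrl, Ramp1 and Ramp2. They were listed by name, with earlier results of these data known, from the 31053 genes in the files, and each was followed by cell class and by day. The cells came from carotid arteries of male C57BL/6 mice, of which the left was injured with a wire at 11 weeks of age. Carotids of at least 5 mice were pooled for each of 4 libraries, taken before injury (day 0) and 3, 7 and 14 days after it, and vessels that held a thrombus were left out. The groups shared strain and sex and differed in the time since injury, and the methods give the right carotid as the control side, without stating whether the cells of day 0 came from it. Each day was 1 library, so day and library cannot be told apart, no test between days was possible, and the intervals given with day values cover counting error only, not the spread between cells or mice. The naive vessels that the study profiled separately are not analysed here.

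Endothelin-1, made from the Edn1 transcript, is a strong vasoconstrictor released mainly by endothelium. On smooth muscle it acts through EDNRA, whereas EDNRB on endothelium is known for release of nitric oxide and for clearing the peptide. Angiotensin II constricts vessels through the receptor encoded in mice mainly by Agtr1a. Natriuretic peptides work in the opposite direction: NPR1 makes cyclic GMP, which relaxes smooth muscle, and NPR3 removes the peptides from the circulation. CALCRL is a receptor whose ligand depends on its partner. With RAMP2 it binds adrenomedullin, a vasodilator that also keeps endothelium tight, and with RAMP1 it binds the neuropeptide CGRP.

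The libraries held, in order of day, 2672722, 18989081, 27973418 and 13329564 UMIs, where a UMI marks 1 captured transcript molecule. After filtering, 281, 1407, 2693 and 1031 cells remained, 5412 in all, with a median of 5440 to 10787 UMIs per cell. Some libraries shared cell barcodes. Days 0 and 3 had 152 barcodes in common, days 7 and 14 had 64 and days 3 and 7 had 1, and in most of these pairs the barcode held far fewer UMIs in one library than in the other. The 214 low copies were removed before any result. Cell classes were named from markers, with the 10 members and the other genes of their pathways kept out of the clustering, and 597 cells (11.0%) stayed unnamed. The fibroblast-like class had 232, 111, 193 and 523 cells at days 0, 3, 7 and 14, the smooth muscle-like class 7, 73, 66 and 74, the endothelial-like class 6, 53, 57 and 21, and the monocyte/macrophage-like class 3, 507, 921 and 183.

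Levels are given as CPM, the UMIs of a gene divided by all UMIs summed over the cells of a class in a library, times 1e+06. Clusters were named from at least 3 markers at 50 CPM, so the markers over the sums describe the classes and do not check them independently. All 10 fibroblast markers reached 50 CPM in every fibroblast-like sum, and 9 or 10 of the 10 smooth muscle markers did so in every smooth muscle-like sum. In the endothelial-like sums 8 of 10 markers did so at day 0, where Kdr and Emcn were at 0, and 9 or 10 later. The endothelial-like cells were shallow, with a median of 1312, 1089, 1706 and 854 UMIs at days 0, 3, 7 and 14, and at day 14 their sum held 5583 CPM of monocyte/macrophage markers against 177 and 187 CPM at days 3 and 7. The smooth muscle-like sums held 2978 to 14686 CPM of fibroblast markers, against 42695 to 73373 CPM in the fibroblast-like sums. The part of these other markers in the results was not tested.

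The 10 members differed widely in how many transcripts were captured and where. Ramp2 gave 3648 UMIs, Ramp1 3340, Edn1 1860, Ednra 1604, Adm 1580, Npr1 1039, Calcrl 781, Ednrb 461, Npr3 361 and Agtr1a 115. These are counts of 3′ transcript ends, which do not scale with gene length. Fibroblast-like cells held the largest share of UMIs for 7 members, from 42.9% for Calcrl to 93.9% for Ednra. Smooth muscle-like cells led for Npr1 (47.4%) and Ramp1 (38.5%), and monocyte/macrophage-like cells for Ednrb (85.2%). The plot of levels by class and day shows each member.

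**Figure D1:**
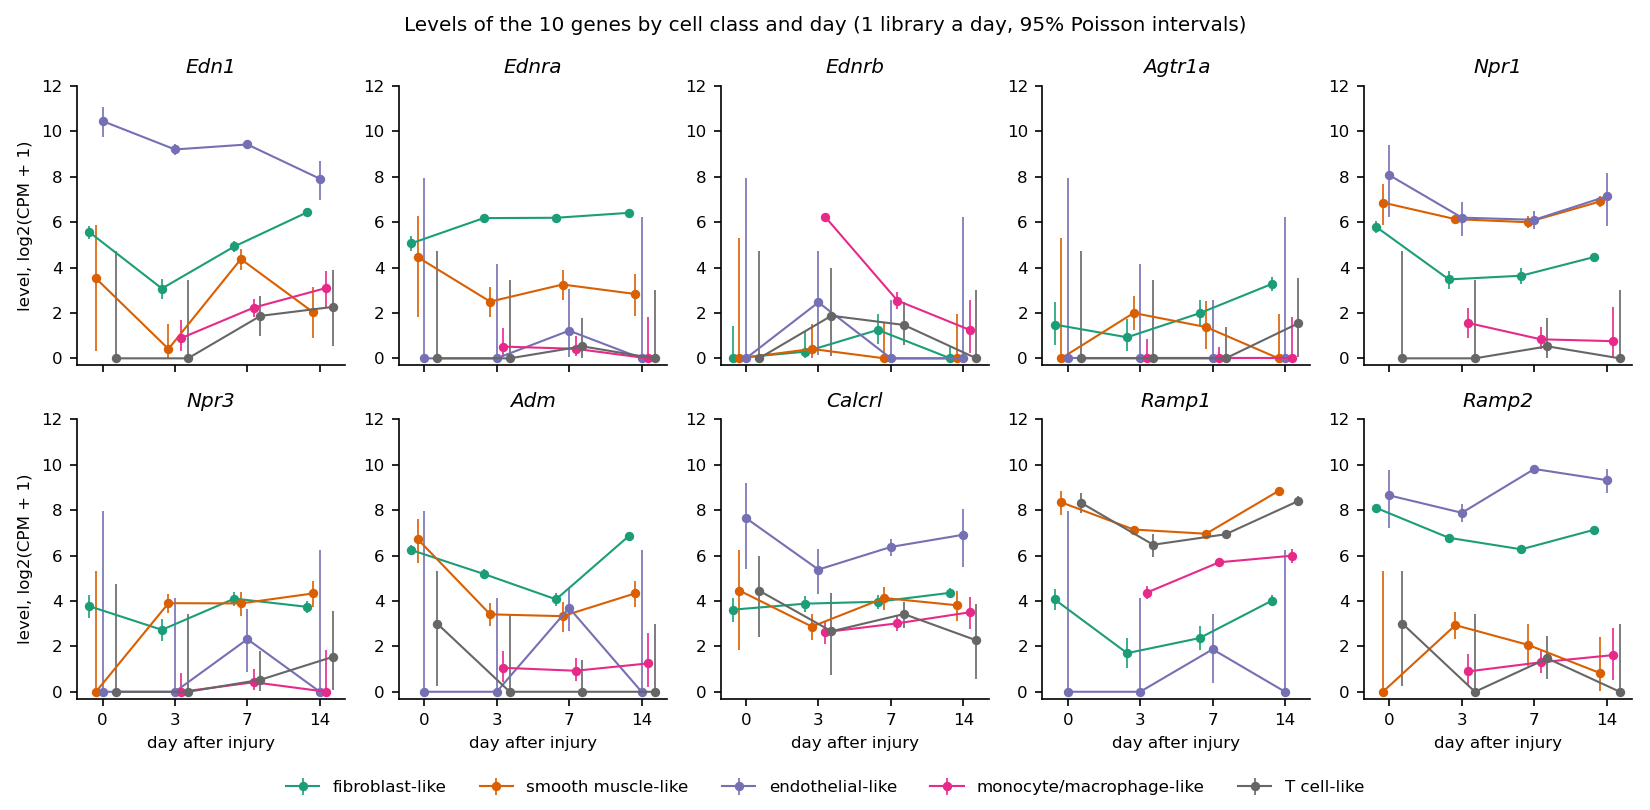
Level of each of the 10 members, as log2(CPM + 1) of the UMIs summed over the cells of a class in a library, against day after injury, for classes with at least 5 cells. Each point is 1 library, without replicates. Edn1 sits highest in endothelial-like cells at every day, Ednra is high in fibroblast-like cells, where it reached 84.0 CPM at day 14, and Ednrb peaks in monocyte/macrophage-like cells at day 3, at 74.9 CPM.

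The first question was which class of the vessel wall carried which side of each peptide system. Smooth muscle-like cells had more Ramp1 and Npr1 than fibroblast-like cells, and fibroblast-like cells had more Ednra, Ramp2, Edn1 and Adm. Sums per library and class, from the libraries with at least 10 cells of the class, were compared with edgeR's quasi-likelihood test with library as a block, so 4 fibroblast-like sums stood against 3 smooth muscle-like sums. Of the 9 members that passed the filter on low counts, 2 were higher in smooth muscle-like cells and 4 were lower at a Benjamini-Hochberg adjusted p below 0.05, against 22.3% of all 12607 genes tested. Agtr1a did not pass that filter.

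Ramp1, the partner for CGRP binding, stood in smooth muscle-like cells at 141, 124 and 460.3 CPM at days 3, 7 and 14, and at 15.8, 2.25, 4.15 and 15.2 CPM at days 0, 3, 7 and 14 in fibroblast-like cells. All smooth muscle-like values were above all fibroblast-like ones (log2 fold change 4.90, SE 0.36, adjusted p = 5.6e-11, edgeR). Npr1, the guanylyl cyclase receptor for natriuretic peptides, stood at 69.2, 62.9 and 119.7 CPM against 54.1, 10.1, 11.5 and 21.0 CPM, again without overlap (2.39, SE 0.28, adjusted p = 4.79e-07, edgeR).

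Ednra, the receptor through which endothelin contracts smooth muscle, went the other way. Smooth muscle-like cells had 4.65, 8.53 and 6.14 CPM at days 3, 7 and 14, and fibroblast-like cells 32.5, 71.4, 72.2 and 84.0 CPM at days 0 to 14 (log2 fold change -3.74, SE 0.31, adjusted p = 2.28e-09, edgeR). The 7 smooth muscle-like cells of day 0 gave 21.0 CPM, below every fibroblast-like value. The smooth muscle-like Ednra counts were few. At day 7 a single cell held 9 of the 16 UMIs, and without it the level was 4.01 CPM.

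Ramp2, the partner for adrenomedullin binding, was at 6.65, 3.20 and 0.767 CPM in smooth muscle-like cells and at 273, 109, 76.5 and 139 CPM in fibroblast-like cells (-4.80, SE 0.47, adjusted p = 6.46e-09, edgeR). Edn1 was lower as well, at 0.332, 19.7 and 3.07 CPM against 46.0, 7.44, 29.5 and 85.0 CPM (-2.43, SE 0.64, adjusted p = 0.00648, edgeR), and so was Adm, at 9.64, 9.07 and 19.2 CPM against 74.9, 35.6, 15.8 and 114.5 CPM (SE 0.42 on the log2 scale, adjusted p = 0.000774, edgeR). In both the groups overlapped, and both calls were lost under DESeq2 and without the day 14 library. Calcrl (-0.59, SE 0.36), the clearance receptor Npr3 (0.39, SE 0.39) and Ednrb (-2.23, SE 1.58, from 1 UMI against 8) did not pass the test, with adjusted p of 0.278, 0.551 and 0.368 in edgeR.

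Endothelial-like cells were then compared with fibroblast-like cells. They carried more of the ligand Edn1 and of Npr1, Calcrl and Ramp2, and less Ednra, Npr3 and Adm. Of 9 members tested, 4 were higher and 3 lower, against 24.2% of all genes. Edn1 stood at 589, 686 and 240 CPM at days 3, 7 and 14 in endothelial-like cells, all above the 85.0 CPM that was the highest fibroblast-like value (log2 fold change 3.91, SE 0.60, adjusted p = 1.67e-05, edgeR). The 6 endothelial-like cells of day 0 gave 1404 CPM. These levels rested on few cells, since 1 cell held 120 of the 130 UMIs at day 3, and without it the level was 69.9 CPM (33.5 to 129).

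Calcrl stood at 40.8, 82.4 and 120 CPM at days 3, 7 and 14 in endothelial-like cells, against 11.3, 13.7, 14.6 and 19.6 CPM in fibroblast-like cells (log2 fold change 1.85, SE 0.40, adjusted p = 0.000784, edgeR). At day 3, 8 of the 9 Calcrl UMIs lay in 1 cell, without which the level was 6.32 CPM (0.160 to 35.2), below every fibroblast-like value. At day 14, 4 of the 6 UMIs lay in 1 cell, without which it was 49.9 CPM (6.05 to 180.4). Its partner Ramp2 stood at 236, 901 and 640 CPM (1.97, SE 0.38, adjusted p = 0.000276, edgeR). Its value at day 3 lay below the 273 CPM of fibroblast-like cells at day 0, so these groups overlapped. The calls of Calcrl and Ramp2 were among those lost without the day 7 library, which held most of the endothelial-like UMIs. Npr1 was higher by 2.24 (SE 0.35, adjusted p = 2.85e-05, edgeR), at 72.5, 67.8 and 140 CPM, though 6 of the 7 UMIs at day 14 came from 1 cell.

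The lower members were near the counting floor in endothelial-like cells. Ednra gave 1 UMI over the 3 libraries against 1506 in fibroblast-like cells, a level 74.6 times lower by counts (95% interval 13.4 to 2948) with adjusted p = 6.26e-08 in edgeR. Npr3 gave 3 UMIs, 4.06 times lower (1.37 to 19.8, adjusted p = 0.0316), and Adm 9 UMIs, with a log2 fold change of -2.29 (SE 0.68, adjusted p = 0.0142). The calls of Npr3 and Adm were lost under DESeq2, without the day 3 or the day 14 library, and with separate clustering of the libraries. Ramp1 gave 2 UMIs, with a ratio of counts of 0.1999 (0.0240 to 0.732), and did not pass edgeR's test (adjusted p = 0.246), nor did Ednrb with 1 UMI (adjusted p = 0.987).

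Between endothelial-like and smooth muscle-like cells, 3 members were higher and 2 lower in the endothelial-like class, of 9 tested, against 17.5% of all genes. Ramp2 (log2 fold change 6.77, SE 0.50, adjusted p = 5.69e-11, edgeR), Edn1 (6.34, SE 0.67, adjusted p = 8.47e-08) and Calcrl (2.44, SE 0.43, adjusted p = 7.96e-05) were higher. Ramp1 was lower, with 2 UMIs against 1256, a level 104 times lower by counts (28.7 to 859, adjusted p = 6.37e-08 in edgeR). Npr3 was lower with 3 UMIs against 93 (adjusted p = 0.0165), a call lost under DESeq2, without day 3, without day 14 and with the libraries clustered separately. The levels of Npr1 (-0.15, SE 0.33, adjusted p = 0.858, though it was called lower without the deepest sub-cluster) and Adm (-0.29, SE 0.80, adjusted p = 0.901) did not pass the test, and Ednra missed the threshold (1 UMI against 38, adjusted p = 0.0516, edgeR). Ednrb gave 1 UMI in each class (adjusted p = 0.647, edgeR).

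Monocyte/macrophage-like cells had more Ednrb and Ramp1 than fibroblast-like cells and less of the other 7 members tested. More genes were called in this comparison of distant cell types than in any of the other 3, 53.6% of all, and all 9 members were among them. Ednrb stood at 74.9, 4.84 and 1.38 CPM at days 3, 7 and 14, against 0, 0.225, 1.38 and 0 CPM at days 0, 3, 7 and 14 in fibroblast-like cells (log2 fold change 4.74, SE 0.80, adjusted p = 1.7e-05, edgeR). The day 14 value did not exceed the fibroblast-like value of day 7, the call was lost under DESeq2 (adjusted p = 0.0609), and without the day 3 library Ednrb no longer passed the filter on low counts. Ramp1 was higher by 2.78 (SE 0.35, adjusted p = 1.32e-07, edgeR), at 19.6, 51.2 and 62.8 CPM. The log2 fold changes of the lower members were -7.56 for Ednra, -6.30 for Ramp2, -5.02 for Adm, -3.33 for both Edn1 and Npr1 and -1.10 for Calcrl, whose call was lost without the day 7 library. Npr3 gave 3 UMIs against 246, a level 59.4 times lower by counts (20.1 to 290.1), and Agtr1a, not tested, gave 0 UMIs against 101.

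**Figure D2:**
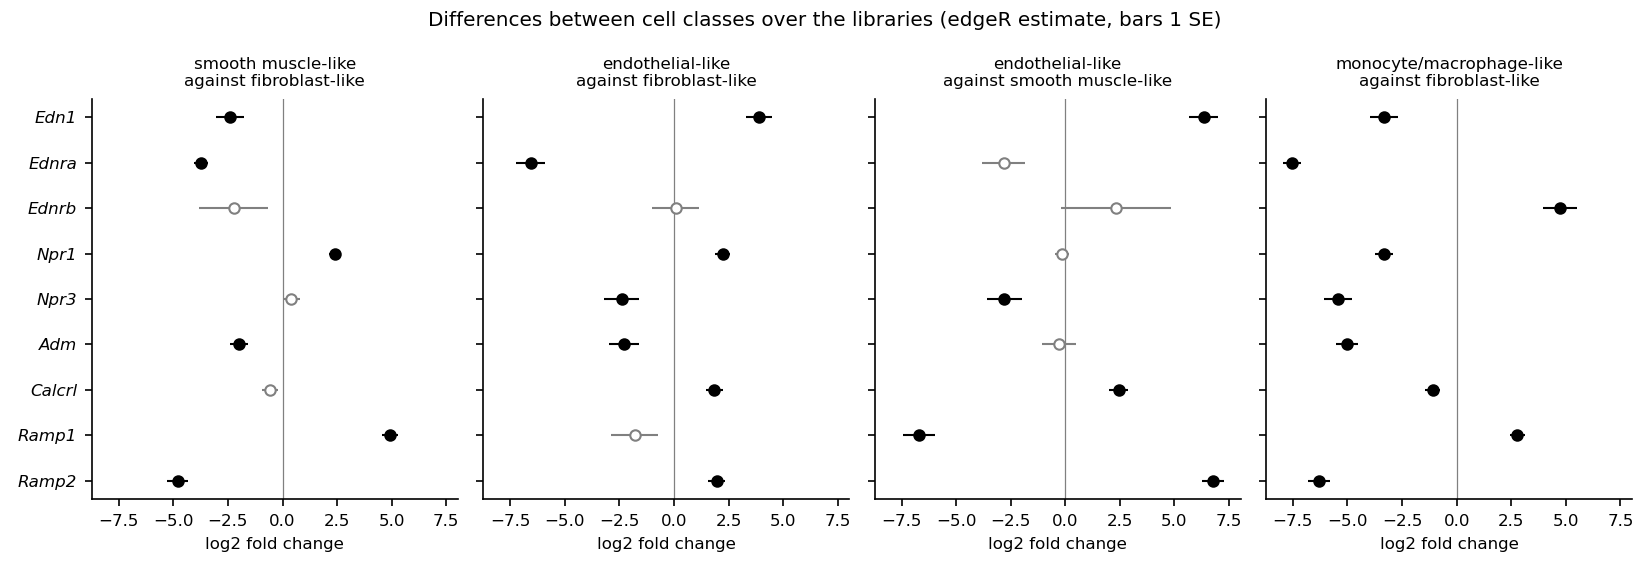
Log2 fold change of each member between 2 cell classes, fitted by edgeR on the sums per library and class with library as a block; bars show 1 SE, and filled points have a Benjamini-Hochberg adjusted p below 0.05. Ramp1 is 4.90 higher in smooth muscle-like than in fibroblast-like cells, and Ramp2 is -4.80, while Ednra is lower than in fibroblast-like cells in each of the 3 other classes.

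Because CALCRL needs a RAMP, the balance of Ramp1 and Ramp2 was compared within each class. The classes fell at opposite ends. Ramp1 made up 0.260% of the Ramp1 and Ramp2 UMIs in endothelial-like cells (2 of 770, exact binomial 95% interval 0.0315 to 0.935%) and 6.90% in fibroblast-like cells (202 of 2927, 6.01 to 7.88%). In smooth muscle-like cells it made up 97.9% (1287 of 1314, 97.0 to 98.6%). In fibroblast-like cells the share by day was 5.47%, 2.02%, 5.15% and 9.83%, and in smooth muscle-like cells it was 100%, 95.5%, 97.5% and 99.8%, so the 2 classes did not overlap at any day.

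Most immune classes carried Ramp1 almost without Ramp2. The share of Ramp1 was 97.0% in monocyte/macrophage-like, 99.1% in dendritic-like, 95.7% in NK cell-like and 99.1% in T cell-like cells (531 of 536 UMIs). Neutrophil-like cells had 11 Ramp1 UMIs of 13 (84.6%, 54.6 to 98.1%), and B cell-like cells a single UMI, of Ramp2. Calcrl stood at 5.18, 7.09 and 10.3 CPM at days 3, 7 and 14 in monocyte/macrophage-like cells and at 18.7, 10.6 and 3.27 CPM in dendritic-like cells. The dendritic-like value of day 14 came from 1 UMI. Among the dendritic-like clusters, the one led by Ccr7 and Ccl22 had 47.4 CPM of Calcrl (43 of the 100 UMIs of the class) and 6.61 CPM of Ramp1, whereas the one led by Cd209a and Clec10a had 7.90 CPM of Calcrl and 66.4 CPM of Ramp1. In T cell-like cells Ramp1 stood at 322, 88.2, 122 and 337 CPM at days 0, 3, 7 and 14. That level was uneven among the T cell clusters. In the cluster led by Trdc and Cd163l1 it was 499 CPM at day 7 and 1006 CPM at day 14, in the cluster led by Icos and Cd3g 180 and 440 CPM, and in the cluster with Cd8b1 and Cd8a 15.9 and 31.8 CPM. The 10 plasmacytoid dendritic-like cells of day 7 gave 299.6 CPM.

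**Figure D3:**
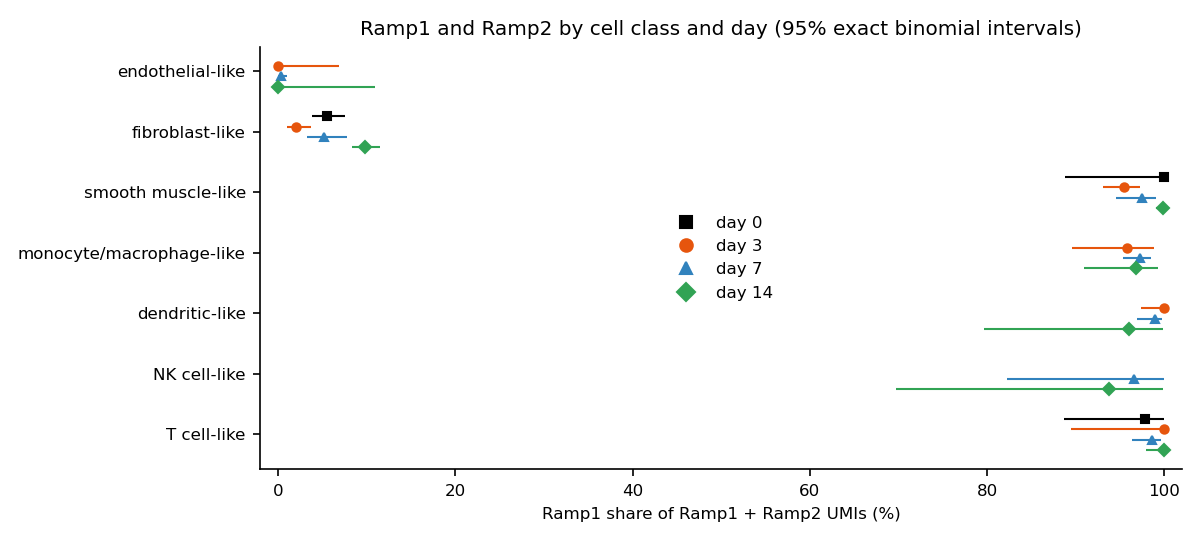
Ramp1 as a percentage of the summed Ramp1 and Ramp2 UMIs of the cell classes named here, by day. Bars are exact binomial 95% intervals, which cover counting error only. Endothelial-like (0.260%) and fibroblast-like cells (6.90%) lie at the Ramp2 end, and smooth muscle-like (97.9%), monocyte/macrophage-like (97.0%), dendritic-like (99.1%), NK cell-like (95.7%) and T cell-like cells (99.1%) at the Ramp1 end. These percentages are over all libraries and are not drawn.

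The days were then compared within each class. A member was called where the summed level differed at least 2-fold on the log2(CPM + 10) scale, the exact 95% interval of the ratio left out 1 and both sums together held at least 20 UMIs. This is a rule of size and not a test of the days. Fibroblast-like cells, present in all 4 libraries, were compared with day 0. At day 3, 4 of 8 members that held enough UMIs were called lower and none higher, against 7.63% of all genes, and the median log2 ratio was -0.98 for these 8 members and -0.07 for all genes. At day 7, 3 of 8 were called lower and none higher, against 7.15%. At day 14, 1 of 9 was called higher and 1 lower, against 4.03%.

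Edn1 in fibroblast-like cells stood at 46.0, 7.44, 29.5 and 85.0 CPM at days 0, 3, 7 and 14, lowest at day 3 and highest at day 14. Against day 0 the ratio for day 3 was 0.162 (0.106 to 0.241), which was called, while those for day 7 (0.640) and day 14 (1.85) were not. At day 3, 23 of the 33 UMIs lay in 1 cell, without which the level was 2.31 CPM (1.11 to 4.24). At day 14 the cell with most held 26 of 761. From day 3 to day 14 the level was 11.4 times higher (8.07 to 16.7), and in that comparison 3 of 9 members were called higher, Edn1, Adm and Ramp1, against 5.05% of all genes.

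Adm, like Edn1, was highest at day 14, but its lowest day was day 7. Its level was 74.9, 35.6, 15.8 and 114.5 CPM at days 0, 3, 7 and 14, with a called ratio to day 0 of 0.211 at day 7 (0.160 to 0.278) and ratios of 0.476 at day 3 and 1.53 at day 14 that were not called. From day 3 to day 7 the ratios ran opposite ways, 0.444 for Adm (0.335 to 0.585), not called, and 3.96 for Edn1 (2.70 to 5.97), which was called. Without the cell with most Edn1 UMIs in each sum, Edn1 stood at 2.31 CPM at day 3 and 24.0 CPM at day 7. From day 3 to day 14 Adm was 3.22 times higher (2.72 to 3.83). At day 14 its 1025 UMIs came from 148 of 523 cells, and 76 of them from 1 cell.

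The receptors of fibroblast-like cells took different courses. The make-up of the class also differed by day, given here as cells at days 0, 3, 7 and 14. The sub-cluster led by AI507597 and Lamc3 held 119, 49, 22 and 47, and the one led by Rgs5 and Gadd45b 2, 2, 73 and 124. The one led by C1qtnf3 and Cilp held 0, 0, 16 and 179, and the one led by Igfbp5 and Sema3c 25, 2, 8 and 87. The deepest one, led by Saa3 and Lcn2, held 0, 42, 34 and 2. In the paper, a day 7 cluster first labelled as fibroblasts was set apart from them as SEM (stem cell, endothelial cell, monocyte) cells. How far the fibroblast-like class holds such cells was not tested, nor was the part of this make-up in the ratios and class contrasts. Npr1 was called lower than its 54.1 CPM of day 0 at all 3 later days, with 10.1, 11.5 and 21.0 CPM and ratios of 0.187 (0.130 to 0.266), 0.212 (0.152 to 0.292) and 0.388 (0.307 to 0.492), the last of which was not called when CPM was averaged over cells. Ramp2 was called lower at days 3 (0.401, 0.355 to 0.452) and 7 (0.280, 0.246 to 0.319), but not at day 14 (0.511). Its call at day 3 was lost without the deepest sub-cluster of non-immune cells (log2 ratio -0.67) and when CPM was averaged over cells (-0.89). Ramp1 was called lower at day 3 from 10 UMIs against 35 (0.143, 0.0630 to 0.295), a call that was lost when the low barcode copies were kept, when CPM was averaged over cells and when the libraries were clustered separately.

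Ednra was the member called higher. It rose 2.59-fold (2.03 to 3.34) between day 0, with 32.5 CPM, and day 14, with 84.0 CPM. At days 3 and 7 it stood at 71.4 and 72.2 CPM, with ratios of 2.20 and 2.22 that stayed below 2-fold on the log2(CPM + 10) scale and were called with a pseudocount of 1 CPM. With cells thinned to 1000 UMIs, 2.88%, 3.64%, 6.84% and 8.40% of fibroblast-like cells held an Ednra UMI at days 0, 3, 7 and 14, against 21.6%, 66.7%, 60.1% and 53.3% before thinning. Shares after thinning, here and below, leave out cells with fewer than 1000 UMIs, while unthinned shares cover all cells of the class. Before thinning the order of the days followed depth, with a median of 8263 UMIs per cell at day 0 and 34613 at day 3. In T cell-like cells, which should lack Ednra, 0.187% held a UMI after thinning (1 of 534, median 5444.5 UMIs before thinning).

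Agtr1a was sparse. Its UMIs in fibroblast-like cells numbered 4, 4, 15 and 78 at days 0, 3, 7 and 14, or 1.80, 0.901, 2.97 and 8.72 CPM. Day 14 stood 4.83 times above day 0 (1.81 to 18.2) and 9.67 times above day 3 (3.63 to 36.4), but it was not called, since at such low levels the ratio to either day stayed below 2-fold on the log2(CPM + 10) scale. Days 0 and 3 together, and days 0 and 7 together, held too few UMIs for the rule. With a pseudocount of 1 CPM day 14 was called higher than day 0. Npr3, at 12.6, 5.63, 16.2 and 12.4 CPM, and Calcrl, at 11.3, 13.7, 14.6 and 19.6 CPM, were not called either. Ednrb gave 8 UMIs in the class, 6 of the 7 of day 7 in 1 cell.

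Within the non-immune cells, 8 sub-clusters were found, and the levels of the members across them are given as a description. Edn1 and Adm were highest among the fibroblast-like sub-clusters in the one led by C1qtnf3 and Cilp, which had no cells at days 0 and 3, 16 at day 7 and 179 at day 14. There Adm stood at 198 CPM (184 to 212) and Edn1 at 124 CPM (113 to 135) at day 14, against 1.81 and 9.07 CPM in the 16 cells of day 7. The sub-cluster led by Igfbp5, Sema3c and Pi16 held the highest Agtr1a (19.2 CPM) and, among fibroblast-like sub-clusters, the highest Npr1 (69.4 CPM) and Ramp2 (269.6 CPM), and its Ednra was at 32.3 CPM, against 105 CPM in the C1qtnf3 sub-cluster. In the sub-cluster led by AI507597 and Lamc3, with cells at all 4 days, Ednra was at 40.9, 88.2, 107 and 78.6 CPM, Npr1 at 46.7, 18.3, 27.2 and 17.04 CPM and Ramp2 at 253, 167, 170.2 and 182 CPM at days 0, 3, 7 and 14. Over all days Ramp2 differed among the sub-clusters, with 201 CPM in this one and 96.6 CPM in the Rgs5 one.

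**Figure D4:**
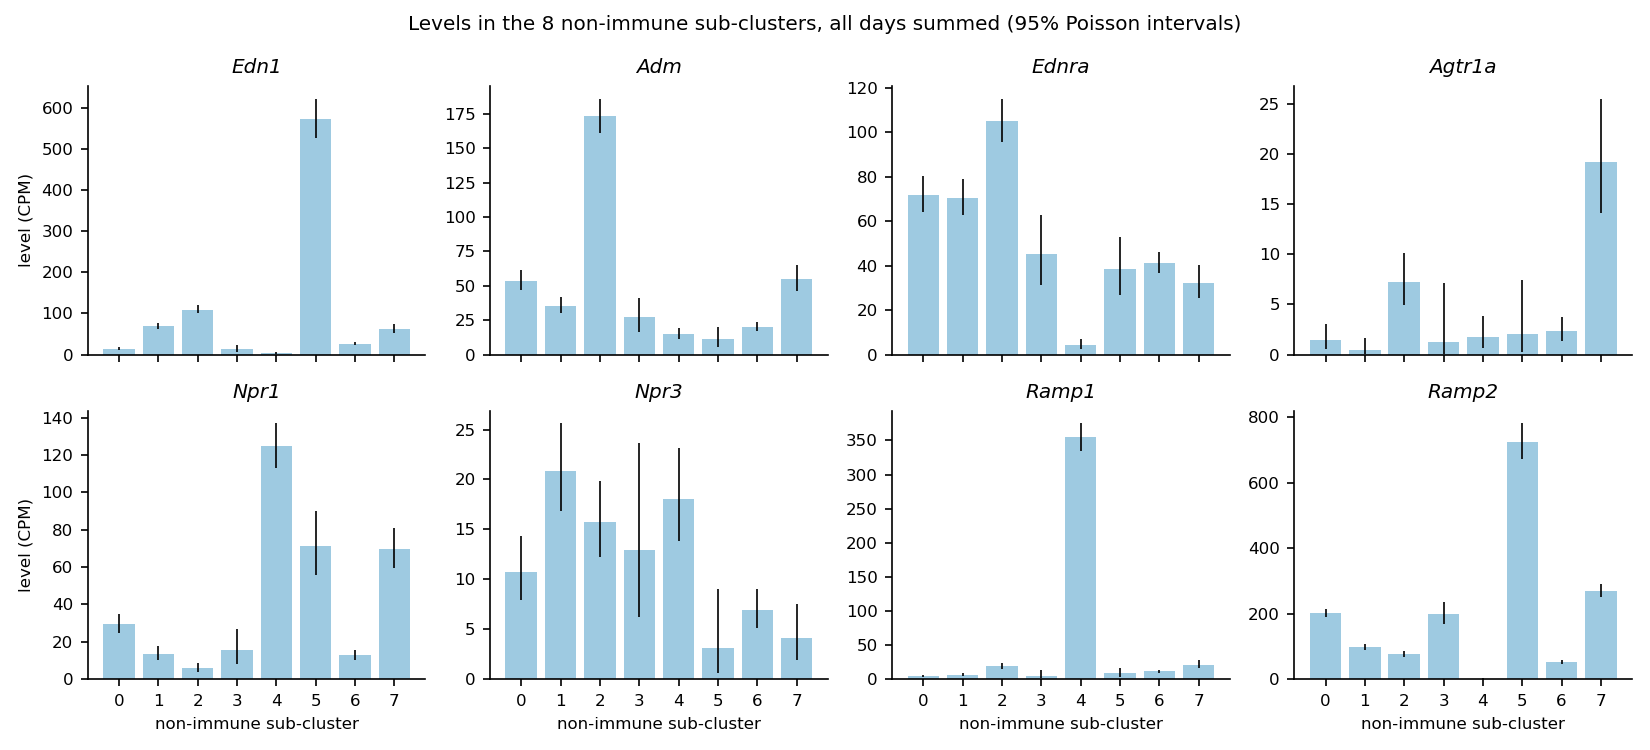
Level, as CPM of summed UMIs on a linear scale, in the 8 sub-clusters of the non-immune cells over all libraries. The members drawn are Edn1, Adm, Ednra, Agtr1a, Npr1, Npr3, Ramp1 and Ramp2. Adm (173 CPM) and Edn1 (109 CPM) are highest among fibroblast-like cells in the C1qtnf3 and Cilp sub-cluster, Npr1 (125 CPM) and Ramp1 (355 CPM) in the smooth muscle-like one, and Edn1 (572 CPM) and Ramp2 (725 CPM) in the endothelial-like one.

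The promoters of Edn1 and Adm are shown because both ligands were highest at day 14 in the fibroblast-like class and, among its sub-clusters, in the same one. The sequences are from RefSeq (GRCm38.p6), 250 bases before to 30 after the transcription start, where 8 of the 10 members had an entry. Capitals mark the motifs found. The search covered both strands of the whole entries, which run to 50 bases after the start, for the hypoxia-inducible factor core ACGTG, the AP-1 site TGANTCA, the GATA site AGATAA, the TATA box TATAAA and the CArG box. Only these spellings were searched, so the form GCGTG of the hypoxia-inducible factor core was not part of the search.
Edn1, chr13:42301226-42301505, plus strand: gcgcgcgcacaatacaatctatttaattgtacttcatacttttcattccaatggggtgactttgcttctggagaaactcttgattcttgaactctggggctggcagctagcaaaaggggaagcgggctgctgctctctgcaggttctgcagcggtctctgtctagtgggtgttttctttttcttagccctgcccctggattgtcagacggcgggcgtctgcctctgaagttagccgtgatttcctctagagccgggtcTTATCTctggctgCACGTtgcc
Adm, chr7:110627407-110627686, plus strand: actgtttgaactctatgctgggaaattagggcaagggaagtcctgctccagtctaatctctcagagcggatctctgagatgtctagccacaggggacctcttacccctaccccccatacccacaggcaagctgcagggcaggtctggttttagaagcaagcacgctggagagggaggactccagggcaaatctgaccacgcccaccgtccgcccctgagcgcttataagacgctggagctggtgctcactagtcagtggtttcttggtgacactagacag
In Edn1 the GATA letters and ACGTG were found, both after the start and on the reverse strand, 8 and 21 bases from it. In Adm none of the 5 motifs was found in the spelling searched, nor in the other 6 members. The form GCGTG, on either strand, does lie in the sequences of Adm, Calcrl, Npr1 and Ednrb. How often it lies in all promoters was not counted. ACGTG lay in 19.6% and the GATA letters in 11.2% of all 32851 promoters of the same length, TGANTCA in 7.81%, TATAAA in 13.6% and the CArG box in 1.63%. A match describes letters in this window and not a site in use.

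In smooth muscle-like cells, with day 3 as the reference because day 0 held 7 cells, Ramp1 and Npr1 stayed the leading members at every day. At day 7, 1 of 8 members was called, higher, against 1.65% of all genes, and the median log2 ratio was -0.02 for the members and 0.03 for all genes. At day 14, 1 of 7 was called, higher, against 6.08%. Ramp1 had levels of 141, 124 and 460.3 CPM at the 3 days, so that day 14 stood 3.27 times above day 3 (2.88 to 3.71). Thinned to 1000 UMIs, 19.4%, 15.4% and 38.4% of the cells held a Ramp1 UMI at the 3 days (71.2%, 63.6% and 90.5% unthinned, median 15177 to 35758 UMIs), against 0.904% of neutrophil-like cells (median 2911 UMIs).

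The Ramp1 call at day 14 depended on which sub-clusters made up the class. The deepest sub-cluster, led by Saa3, Lcn2 and Spp1, held 43 of the smooth muscle-like, 78 of the fibroblast-like and 5 of the endothelial-like cells, none of them from day 0. It expressed 8 of 8 cell-cycle markers. Without it the log2 ratio of Ramp1 at day 14 was 0.81, under the 2-fold limit. In the sub-cluster led by Myh11 alone, Ramp1 was at 260.4, 349 and 468 CPM and Npr1 at 113, 159.9 and 122 CPM at days 3, 7 and 14. The level of Ramp1 over the days followed the 10 smooth muscle markers, which summed to 20645, 14403 and 41654 CPM at days 3, 7 and 14 in this class while the fibroblast markers summed to 8156, 14686 and 7081 CPM, and the part of this in the result was not tested. The other call, Edn1 at day 7, came from 37 UMIs in 11 cells against 1 UMI at day 3 (ratio 59.3, 10.0 to 2406), and it too was lost without the deepest sub-cluster (log2 ratio 0.93). Npr1, at 69.2, 62.9 and 119.7 CPM, was not called at day 14 (ratio 1.73, 1.40 to 2.14), nor were Npr3, at 14.0, 13.9 and 19.2 CPM, Adm, Calcrl, Ednra or Ramp2.

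Endothelial-like cells were compared with day 3 as well. Here large shares of all genes were called, 15.0% at day 7 and 30.0% at day 14, beside 1 of 4 members at day 7 and 2 of 3 at day 14. Ramp2 had levels of 236, 901 and 640.3 CPM in order of day, with ratios of 3.83 (2.88 to 5.17) and 2.72 (1.69 to 4.30), although the second was lost with separate clustering (log2 ratio 0.05). Edn1 was called lower at day 14 (12 UMIs against 130, ratio 0.408, 0.205 to 0.737). That direction turned when the single cell with the most Edn1 UMIs was left out of each sum, which gave 69.9 and 99.9 CPM at the 2 days. After thinning, 3 of 31, 15 of 38 and 2 of 7 endothelial-like cells held an Edn1 UMI at days 3, 7 and 14 (9.68%, 39.5% and 28.6%; 9.43%, 45.6% and 19.05% unthinned), against 0.602% of neutrophil-like cells. Npr1 was not called at either day and Calcrl not at day 7, while its 9 and 6 UMIs at days 3 and 14 were too few for the rule. The other 6 members gave at most 9 UMIs in any of these sums, Agtr1a none, and were not assessed.

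Monocyte/macrophage-like cells changed in 2 members, and in opposite directions. At day 7, 1 of 4 members was called higher and 1 lower than at day 3, against 2.23% of all genes. For day 14 the same held for 1 and 1 of 3, against 4.73%. Ednrb, the second endothelin receptor, was at 74.9 CPM at day 3 (347 UMIs in 103 of 507 cells), 4.84 at day 7 (43 UMIs) and 1.38 at day 14 (2 UMIs), with ratios of 0.0646 (0.0459 to 0.0889) and 0.0184 (0.00222 to 0.0670). Thinned to 1000 UMIs, 35 of 496 cells (7.06%) held an Ednrb UMI at day 3, 6 of 899 (0.667%) at day 7 and 0 of 158 at day 14, which bounds the share of thinned cells with a UMI at 1.90% and not the share that express the gene. Unthinned shares were 20.3%, 2.39% and 1.09%. Neutrophil-like cells, used as a class that should lack the gene, held it in 0 of 223 thinned cells of day 3, a bound of 1.35% of the same kind (median 2827.5 against 7185 UMIs before thinning).

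Day 3 Ednrb was concentrated in 1 macrophage cluster. Cluster 7, with Ccl6 and Pf4 among its leading genes and 256 cells at day 3 and 42 at day 7, held 315 of the UMIs at day 3, or 125 CPM (111 to 139), and 7.64 CPM at day 7 (2.48 to 17.8). In cluster 1, with Ms4a7 and C1qa, the level was 20.1, 4.74 and 1.78 CPM at days 3, 7 and 14, and in the interferon-responsive one led by Rsad2 and Ifit1 17.3 CPM at day 3 from 7 UMIs. Within the first 2 of these clusters the level at day 3 was thus above that of day 7, with intervals that did not overlap. Ramp1 went from 19.6 to 51.2 and 62.8 CPM, with ratios of 2.61 (2.08 to 3.30) and 3.20 (2.36 to 4.32). The day 7 call was lost when no doublets were removed and when CPM was averaged over cells. Ramp1 was low in cluster 7, at 11.5 and 7.64 CPM at days 3 and 7, against 22.4 and 61.9 CPM in the Ms4a7 cluster. Calcrl was not called at either day, nor was Edn1 at day 7 (3.71 against 0.863 CPM), and the other 6 members held too few UMIs in this class for the rule.

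**Figure D5:**
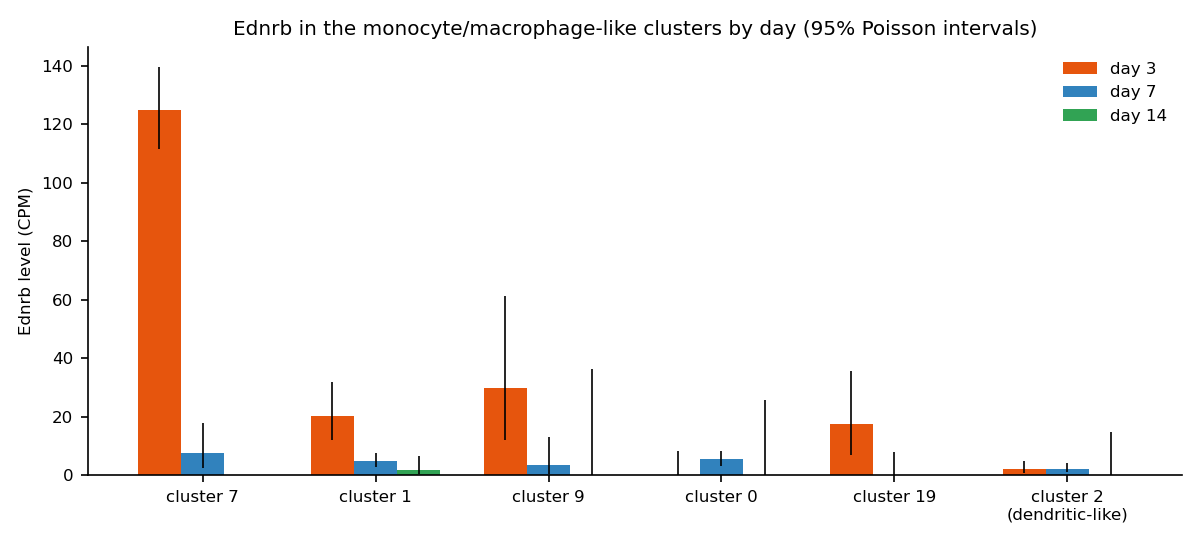
Ednrb level, as CPM of the UMIs summed over the cells of a cluster in a library, by day. The monocyte/macrophage-like clusters and the dendritic-like cluster led by Cd209a are drawn, with exact Poisson 95% intervals. Cluster 7, with Ccl6 and Pf4 among its leading genes, reached 125 CPM at day 3, and every cluster lay below 10 CPM at days 7 and 14.

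The other genes of these pathways were followed by a list of 44 symbols (processing enzymes, further receptors, G proteins, the cyclic GMP arm and regulators), 42 of them in the data. Of the 25 that passed the filter, 8 were higher and 6 lower in smooth muscle-like than in fibroblast-like cells, where 22.3% of all genes were called. The higher ones included both subunits of the nitric oxide receptor, Gucy1a1 (log2 fold change 3.61, SE 0.37, adjusted p = 5.35e-08, edgeR) and Gucy1b1 (2.76, SE 0.35), and the cyclic GMP kinase Prkg1 (3.14, SE 0.47). Like Npr1, these genes belong to cyclic GMP signalling. The lower ones included the peptidase Anpep (-4.20, SE 0.40), the scavenger receptor Ackr3 (-3.21, SE 0.32), which binds adrenomedullin, and renin, Ren1, with 0 UMIs against 245, a level at least 24.5 times lower at a floor of 3 UMIs over the group.

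In endothelial-like cells (24.2% of all genes called) 2 of the 25 were higher than in fibroblast-like cells, the endothelin-converting enzyme Ece1 (2.50, SE 0.29, adjusted p = 1.28e-07, edgeR) and the G protein subunit Gnaq (1.09, SE 0.30), and 6 were lower, among them Pde5a (-4.14, SE 0.50), Ackr3 (-2.15, SE 0.35), Rgs4 with 3 UMIs against 557 and Gucy1a1 with 1 against 521. Against smooth muscle-like cells 4 were higher and 10 lower (17.5% of all genes called). Gucy1a1 gave 1 UMI against 1175, Rgs4 3 against 461, Pde5a 4 against 649, Gucy1b1 4 against 636, Prkg1 2 against 198 and Enpep 1 against 54. In monocyte/macrophage-like cells 6 were higher and 16 lower than in fibroblast-like cells, where 53.6% of all genes were called. Rgs2, a regulator of G protein signalling, was higher by 5.63 (SE 0.43, adjusted p = 2.83e-12, edgeR), and Ackr3 (-6.58, SE 0.39), Npr2 (-5.63, SE 0.44) and Rgs4 (-5.43, SE 0.54) were lower, as were Mme and Ren1, both at 0 UMIs.

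By day, pathway genes of fibroblast-like cells moved in both directions, beside 7.63%, 7.15% and 4.03% of all genes called at days 3, 7 and 14. Of 20 with enough UMIs at day 3, 4 were called lower than at day 0, the converting enzyme Ace (ratio 0.170, 0.145 to 0.200), Gucy1a1 (0.0781), Pam (0.435), which amidates adrenomedullin, and the prorenin receptor Atp6ap2 (0.436). At day 7, 2 of 23 were higher, Rgs4 (22.1, 11.1 to 51.6) and Rgs2 (14.3, from 2 UMIs at day 0), and 3 lower, Ace, Pam and Mme, and at day 14, 3 of 25 were higher, Rgs2, Ren1 (5.52, 2.95 to 11.7) and Gucy1a1, and none lower. In smooth muscle-like cells 1 of 21 was higher at day 7 (Ace, with 1.65% of all genes called) and 2 of 21 at day 14 (Gucy1a1 and Pam, with 6.08%). In endothelial-like cells 4 of 12 were higher at day 7 (Anpep, Ace, Lnpep and Gnaq), where 15.0% of all genes were called. At day 14, 1 of 9 was lower, Pde3a, with 0 UMIs against 24, a smaller share than the 30.0% of all genes. In monocyte/macrophage-like cells 1 of 16 was higher at day 7 (Ramp3, the third RAMP, at a ratio of 5.06, with 2.23% of all genes called) and none of 13 was called at day 14 (4.73%).

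The genes whose level followed each member most closely were ranked by Pearson's r of log2(CPM + 10) over the 31 sums of a class in a library with at least 10 cells, among 11420 genes. The sums share libraries and cell classes, so r is a description. Edn1 was followed by Slc9a3r2 (r = 0.96), Afap1l2 and Ecscr, Adm by Pcsk6 (0.87), Il17d and Cmbl, Ednra by Ildr2 (0.98), Sdk1 and Lgi2, and Ednrb by Ppbp (0.94), Siglec1 and Ms4a8a. Agtr1a was followed by Osr2 (0.89), Fgf18 and Thbs4, Npr1 by Kank1 (0.97), Cyb561 and Tmem47, and Npr3 by Lrch2 (0.98), Six5 and Slc2a13. The likeness was weaker for Calcrl, with Caskin2 at 0.81, and for Ramp1, with Sntb1 at 0.70, than for Ramp2, with Rassf9 at 0.94.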

How the data were processed

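The libraries were 10x Genomics 3′ libraries of carotid artery cells. The deposited files hold raw UMI counts per gene and barcode, made by the authors with Cell Ranger and not normalized. The file headers name version 3.0.2, the methods another version, and the labels the build GRCh38, a human name, so no gene coordinates were taken from them.

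Barcodes shared by 2 libraries were removed where they held less than 1/5 of the other library's UMIs. Cells with at least 200 genes and up to 20% mitochondrial UMIs were kept. Scrublet's own threshold marked 15 barcodes (0.243%), too few to be credible, so the highest scores were removed at a rate of 0.8% per 1000 barcodes (102 barcodes). Cells were clustered on 2000 variable genes without the members and pathway genes (30 components, 15 neighbours, Leiden resolution 1, sub-clusters at 0.5; scanpy 1.11.5, leidenalg 0.10.2). A cluster took the name of the class with the largest share of its markers expressed (at least 3, at 50 CPM or more, in 10% of cells or more and 3-fold above the lower quartile of clusters), unless another class had more markers among its 10 leading genes. Shallow clusters (median depth under 0.333 of their library's) with no marker of the class among the leading genes stayed unnamed, and cells of clusters led by at least 3 cell-cycle genes took the class of at least 60% of their neighbours, or none.

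UMIs were summed per class and library. Classes were compared with edgeR 4.0.16 (R 4.3.3; TMM, quasi-likelihood test, library as a block, 31 sums of at least 10 cells, Benjamini-Hochberg adjustment over 12607 genes), with DESeq2 1.42.0 as an alternative. P-values measure how far the differences between classes varied from library to library, with the spread estimated over all 31 sums. Each library is a pool of mice from a different day, so the spread between mice is not measured. Days were compared by the ratio of summed CPM with an exact conditional binomial 95% interval. Both procedures were tested on simulated counts first.

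All 10 members were named, pathway genes where called (up to 6 with the largest fold), and the 3 genes of highest r for each member with at least 50 UMIs. Members, lists and tests were chosen with earlier results of these data known.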

Additional observations from a re-analysis of the deposited data

Results flagged for a closer look

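Edn1 stood out because its day comparisons ran in opposite directions in different cell classes, each on the log2(CPM + 10) scale and each called by the rule of size. From day 3 to day 14 the log2 ratio was 2.45 in fibroblast-like cells and -1.26 in endothelial-like cells. From day 7 to day 14 it was 1.27 in fibroblast-like cells, -1.19 in smooth muscle-like cells and -1.48 in endothelial-like cells. With 1 library per day the difference between the classes was not tested. The endothelial-like values rested on 12 UMIs at day 14, and 120 of the 130 UMIs at day 3 lay in 1 cell. Without the cell with most Edn1 UMIs in each sum, the endothelial-like log2 ratio from day 3 to day 14 was 0.46. The same omission left 672 CPM at day 7 and 99.9 CPM at day 14, so the direction between these days stayed. In smooth muscle-like cells 4 UMIs at day 14 stood against 37 at day 7, 13 of which lay in 1 cell.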

How the results depend on the processing

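The number of members called in each of the 8 comparisons was recomputed under each alternative. In 67 of 72 cases the count stayed within 1.5 times its value, and in 5 it moved. Leaving out 1 library at a time gave 4 to 6 called members between smooth muscle-like and fibroblast-like cells, 4 to 7 between endothelial-like and fibroblast-like cells (4 without day 7), 4 to 5 between endothelial-like and smooth muscle-like cells and 7 to 9 between monocyte/macrophage-like and fibroblast-like cells. A pseudocount of 1 CPM raised the day calls from 9 to 15 in fibroblast-like and from 2 to 4 in smooth muscle-like cells. Averaging CPM over cells raised them from 3 to 6 in endothelial-like cells. In that setting the interval was not part of the call, so calls gained there came under a looser rule. Without the deepest non-immune sub-cluster 0 calls remained in smooth muscle-like cells.

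Log2 ratios against day 3 reversed for 3 endothelial-like values. Npr1 at day 7 was 1.05 with CPM averaged over cells (-0.08 in the report's setting), and Npr1 at day 14 was -1.16 with each library clustered on its own (0.86). Edn1 at day 14, -1.26 in the report's setting, was 1.11 with CPM averaged over cells, 2.25 without the deepest sub-cluster and 0.46 without the cell with most of its UMIs. The causes of these moves were not tested. Of the single values in class contrasts, 290 kept their direction and side of the threshold, 21 lost the call and 1 gained it. Of the day ratios, 445 kept both, 12 lost the call, 24 gained it and 5 reversed. Keeping the low barcode copies and leaving out the cell with most UMIs were added after seeing the data. No paired analysis was possible between days because each day is 1 library, while the class contrasts had library as a block.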
